A study of Danio rerio with 8 samples.

Results

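Axonemal structure genes encode the moving core of motile cilia apart from the dynein motors, and were followed here in whole *elipsa* mutant larvae and their siblings. A list of 59 gene names was taken, covering cilia and flagella associated proteins, radial spokes, the central apparatus, the nexin-dynein regulatory complex and proteins inside the doublet microtubules. A gene was a member where its deposited symbol equalled a listed name. This held for 43 of the 59 names, out of 20409 genes in the deposited table, and all 43 could be tested because no further gene was removed here. The authors had already filtered the table on mean CPM, so a listed gene may be absent for that reason. Of the other 16 names, *spag17*, *cfap54*, *cfap221*, *cfap91*, *cfap251* and *pierce1* are the current RefSeq symbols of 6 genes that the table holds under other symbols, and these were used in an alternative only. The remaining 10 (*spef1*, *spef2a*, *cfap47*, *rsph14*, *cfap206*, *drc7*, *cfap161*, *cfap73*, *cfap300* and *cfap299*) matched no symbol and were not analysed here.

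The *elipsa* line carries the *tp49d* allele of *traf3ip1*, which encodes an intraflagellar transport protein needed to build cilia. Crosses of heterozygous fish gave 4 clutches at 4 dpf without treatment, and each clutch gave 1 tube of mutants (-/-), picked by their downward curled tail, and 1 tube of siblings, a mixture of wild-type and heterozygous larvae that serves as the control. Each tube pooled circa 30 larvae, so that a library is an average over animals and tissues, and the mutation was present in every cell of the mutants. Total RNA of these 8 tubes was sequenced, 4 libraries per group. In such bulk samples, fewer or more cells of a type and less or more RNA per cell cannot be told apart.

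The axoneme of a motile cilium is a ring of doublet microtubules around a central pair. Dynein arms on the doublets make them slide, radial spokes carry signals from the central apparatus to the arms, and the nexin-dynein regulatory complex links neighbouring doublets and turns sliding into bending. Filaments and small proteins inside the doublets, tektins among them, give the microtubules strength. In zebrafish larvae such cilia line the brain ventricles, the spinal canal, the pronephric tubules and the olfactory pits, and their genes are driven by the transcription factors Foxj1 and Rfx.

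The values are log2 CPM made by the authors, that is, read counts scaled to a common library total. Sorted values were also nearly identical between libraries, as quantile normalization leaves them. The median level of all genes was 3.81 or 3.82 log2 CPM in every library. Median differences and deviations of all genes near 0, given below, may follow from this step. Levels of the target gene and of tissue markers were examined first. *traf3ip1* had log2 CPM of 3.03, 2.63, 2.81 and 2.78 in controls 1 to 4 and of 2.36, 1.88, 1.61 and 2.09 in mutants 1 to 4, so the groups did not overlap. It was lower by limma, by -0.83 on the log2 scale (standard error 0.18, adjusted p = 0.0751, and 0.00679 when clutch was a block). Leaving out a single library ended that call for each library of clutches 2 to 4 (adjusted p of up to 0.217). Marker genes of muscle, epidermis, neurons, liver, blood, pancreas, eye and pronephros were present in all libraries. Clutch 1 stood apart: its 16 exocrine pancreas genes summed to 1197 CPM in the control and 645.7 CPM in the mutant, against 5364 to 7044 CPM and 2847 to 3486 CPM in the other clutches, and its blood genes were the highest of each group. Its libraries stayed in the comparison, and counts without them are given below.

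Most axonemal structure genes had a higher level in *elipsa* mutants. One by one, 5 of 43 passed the test without a clutch term, and 16 did so with clutch as a block. Of all genes, 0.363% and 6.48% were called higher in these fits. Of the 43 members, 41 had a positive difference, against 57.6% of all genes. The median log2 difference was 0.45, a fold of 1.37, whereas the median over all genes was 0.03. The members summed to 139.8, 133.5, 121.2 and 133.0 CPM in controls 1 to 4 and to 187.7, 171.3, 168.6 and 160.1 CPM in mutants 1 to 4. Every mutant library was thus above every control library, and the ratio of the group means was 1.3. In the mutants of all 4 clutches, 27 of 43 members were higher than in the control of the same clutch, against 18.0% of all genes, and none was lower in all 4, against 14.4%. For 19 of 43 members all mutant libraries lay above all control libraries, against 3.55% of all genes, and for none did they lie below, against 3.34%. Without clutch 1, 41 members were positive, 27 were higher in each of the other clutches (26.2% of all genes), and for 24 the mutants lay above the controls (11.4% of all genes).

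**Figure D1:**
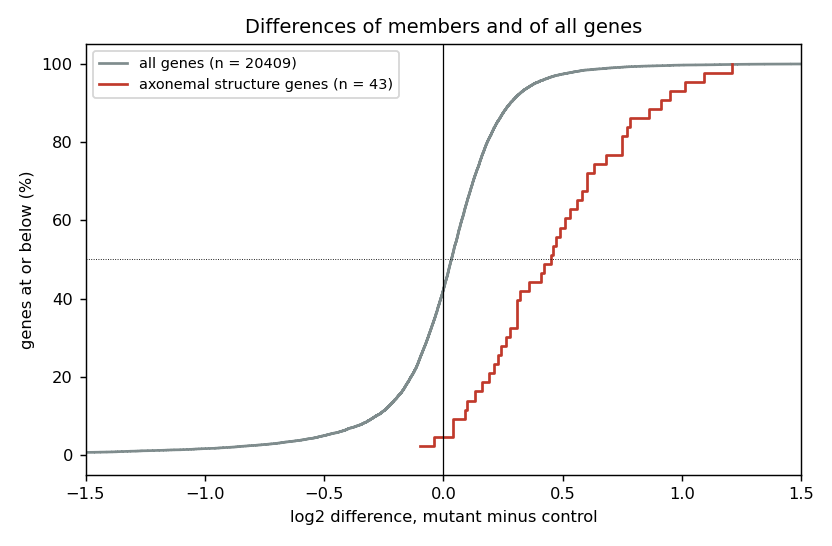
Cumulative share of genes (vertical axis, percent) at or below a log2 difference of mutants minus controls (horizontal axis, cut at -1.5 and 1.5) for the 43 members (red) and all 20409 genes (grey). The dotted line marks the median, 0.45 for the members and 0.03 for all genes.

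The threshold of the test was an adjusted p of 0.1, and 5 members passed: *odf3b*, *stk33*, *tekt4*, *rsph4a* and *hydin*. All 5 were higher, where 0.363% of all genes were called higher. No member was called lower by limma, where 1.16% of all genes were. At an unadjusted p under 0.05, 23 members were higher and none was lower, against 5.84% and 6.11% of all genes. With clutch as a block, which takes out the differences that the tubes of a clutch share, 16 members were higher and none lower, against 6.48% and 7.86% of all genes. Those 16 were the same 5 and 11 more: *spag6*, *cfap74*, *rsph9*, *tekt1*, *tekt2*, *cfap45*, *cfap126*, *saxo2*, *cfap100*, *cfap70* and *ak8*. Of these, *rsph9*, *tekt1* and *tekt2* averaged 0.823, 0.938 and 0.795 CPM in controls and 1.64, 1.66 and 1.48 CPM in mutants. The authors kept genes with a mean CPM above 1 over all libraries. A higher mutant may thus have been a condition for these genes to be in the table. They also count among the positive and the separated members above, and lend those counts no support. The block made the standard error smaller for 34 of the 43 members, and its median went from 0.203 to 0.175. For *odf3b*, *stk33*, *tekt4*, *rsph4a* and *hydin* the adjusted p from limma with the block was 0.00458, 0.0109, 0.0076, 0.0159 and 0.0234. Calls of single genes with libraries left out are given below for the fit without the block. The count of 5 became 8 without control 1, 2 without control 2, 1 without control 3, 3 without control 4, 3 without mutant 1, 1 without mutant 2, 3 without mutant 3 and 1 without mutant 4. Over the whole table, the 74 genes called higher became 285, 29, 20 and 42 without controls 1 to 4. Without mutants 1 to 4 they became 53, 31, 30 and 24. The count of members was 5 without both libraries of clutch 1, none without those of clutch 2 or of clutch 3, and 1 without those of clutch 4. Over the whole table it was 239, 8, 8 and 13 without clutches 1 to 4. Without clutch 2 and without clutch 3, 18 and 14 members had an unadjusted p under 0.05 in limma, each higher. The share of all genes at that p was not counted for these fits, so whether these counts exceed it is not known. With the block, 12 members were called without clutch 1, 10 without clutch 2, 5 without clutch 3 and 8 without clutch 4, each of them higher. Over all genes the share called higher was then 6.07%, 2.83%, 1.8% and 2.41%.

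**Figure D2:**
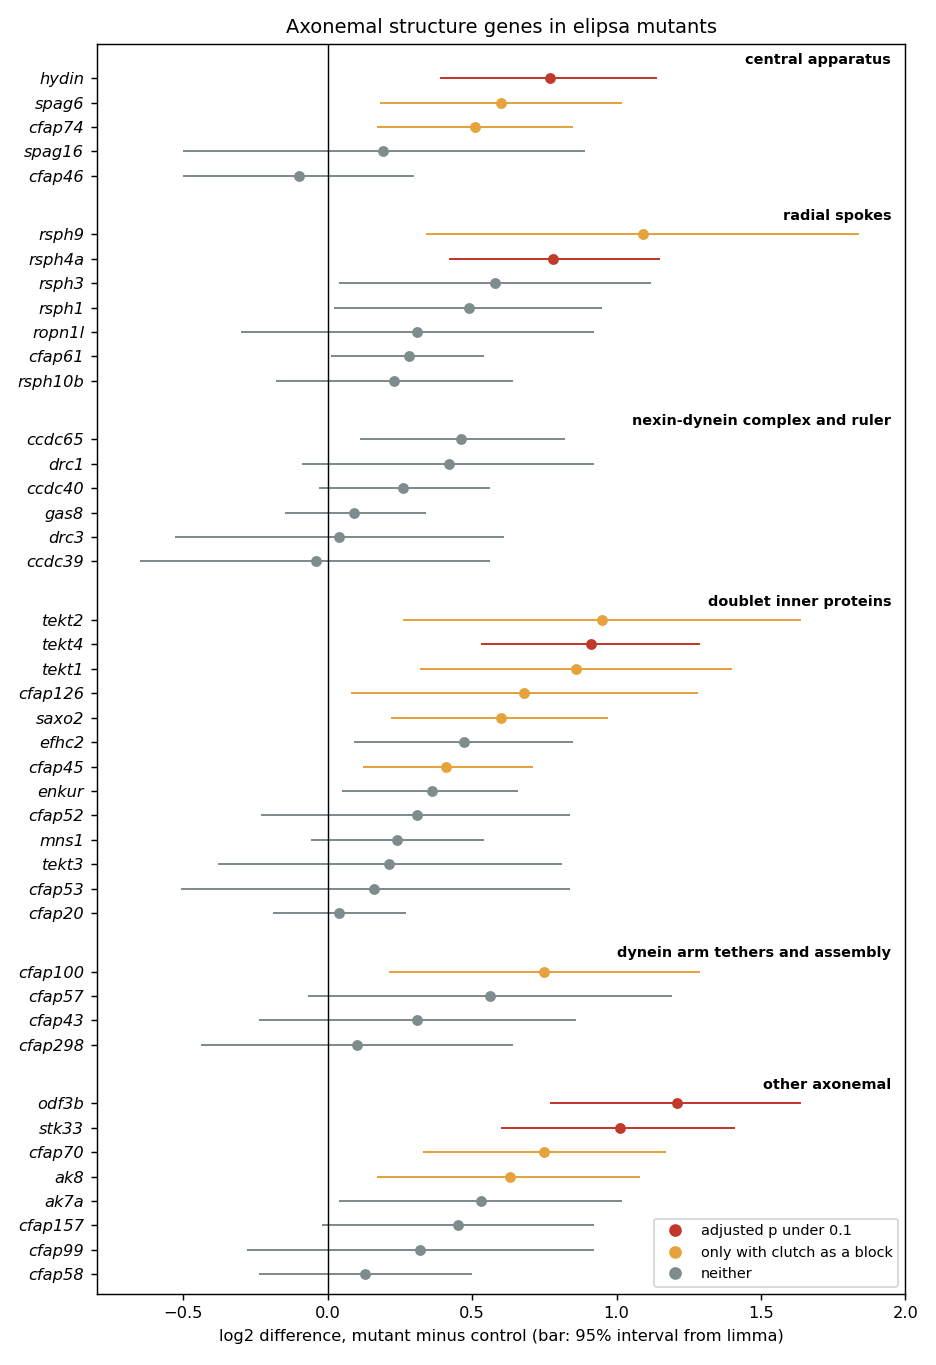
Log2 difference of mutants minus controls (horizontal axis) for each of the 43 members, with its 95% interval from limma, ordered within role groups. Red points passed the test (5 members), orange points passed it with clutch as a block alone (11), and grey points passed neither. All points but *cfap46* and *ccdc39* lie to the right of 0.

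Radial spokes were represented by 7 members, and all 7 had a positive difference, with a median of 0.49 and a range from 0.23 to 1.09. One of them passed the test and 2 did so with clutch as a block. *rsph4a*, which encodes a protein of the spoke head, had log2 CPM of 1.56, 1.00, 1.17 and 1.42 in controls 1 to 4 and of 2.22, 2.10, 1.99 and 1.98 in mutants 1 to 4. Every mutant library was above every control library. It rose by 0.78 on the log2 scale (standard error 0.16, adjusted p = 0.0696 from limma), a fold of 1.72. The call was kept without control 1 and lost without any other single library (adjusted p of up to 0.219). *rsph9*, another spoke head gene, had a larger difference of 1.09 and a wider interval from 0.34 to 1.84 (adjusted p = 0.237, and 0.0784 with the block). This gene may have passed the authors' filter only through the mutants. The spoke head gene *rsph1* differed by 0.49 and the spoke stalk gene *rsph3* by 0.58, and neither was called in either fit. *cfap61*, a gene of the complex at the base of the spokes that binds calmodulin, differed by 0.28, *ropn1l* by 0.31 and *rsph10b* by 0.23.

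The central apparatus was measured through 5 members, with a median difference of 0.51. *hydin*, which encodes a giant protein of a central pair projection and whose loss causes hydrocephalus in mice, had log2 CPM of 2.26, 1.85, 2.49 and 2.53 in controls 1 to 4 and of 3.20, 3.14, 2.92 and 2.94 in mutants 1 to 4. Control 2 was the lowest library, and no mutant overlapped with the controls. Its log2 difference was 0.77 (standard error 0.17, adjusted p = 0.0849 from limma), a fold of 1.70. This call was lost without any one of controls 2 and 3 or of the 4 mutants (adjusted p of up to 0.223). *spag6* and *cfap74*, genes of the central apparatus, differed by 0.60 and 0.51 and passed the test only with clutch as a block (adjusted p = 0.0854 and 0.0562). *spag16*, another gene of this apparatus, differed by 0.19 with a wide 95% interval from -0.50 to 0.89, although its mutant was the higher one in each clutch.

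*cfap46* had the lowest difference of all members. Its product belongs to a central pair projection in the alga *Chlamydomonas*. Its log2 CPM was 1.53, 1.33, 1.03 and 1.19 in controls 1 to 4 and 1.06, 0.94, 1.31 and 1.39 in mutants 1 to 4. The groups overlapped, and the mutant was lower in clutches 1 and 2 and higher in clutches 3 and 4. The log2 difference was -0.10 (95% interval -0.50 to 0.30, adjusted p = 0.874 from limma).

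Proteins inside the doublets formed the largest group, with 13 members, and all 13 had a positive difference with a median of 0.41. One passed the test and 6 did so with clutch as a block. The tektins are filament proteins along the doublets. *tekt4* had log2 CPM of 1.16, 1.43, 1.03 and 1.19 in controls 1 to 4 and of 2.39, 2.17, 1.80 and 2.09 in mutants 1 to 4, again with no overlap. It rose by 0.91 (standard error 0.17, adjusted p = 0.0396 from limma), a fold of 1.88. Without control 3 or 4 or mutant 2 or 4 the call was lost (adjusted p of up to 0.14). Of the other tektin genes, *tekt2* differed by 0.95 and *tekt1* by 0.86, both called with the block alone (adjusted p = 0.0311 and 0.0646), while *tekt3* differed by 0.21 with an interval from -0.38 to 0.81. *tekt1* and *tekt2* may have passed the authors' filter only through the mutants. Whether *tekt3* differed less than the other tektins was not tested, and its interval overlaps theirs. Whether reads were shared between these paralogs was not examined.

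Among the rest of this group, *cfap126*, which encodes Flattop, differed by 0.68, *saxo2* by 0.60 and *cfap45* by 0.41, and these 3 were called with the block (adjusted p = 0.0405, 0.0664 and 0.0958). The differences of *efhc2*, *enkur*, *cfap52*, *mns1* and *cfap53*, further genes of proteins inside doublets, were 0.47, 0.36, 0.31, 0.24 and 0.16. *cfap20*, whose product sits at the inner junction of the doublet and is also found in cilia that do not move, differed by 0.04. Its interval, from -0.19 to 0.27, was the narrowest of all members. Its log2 CPM was 3.14 to 3.24 in controls and 3.07 to 3.32 in mutants.

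Genes of the nexin-dynein regulatory complex and of the ruler that spaces the units along the doublet had the smallest median of the 6 groups, 0.18 over 6 members. None was called by limma, with or without the block, and 1 (*ccdc65*) had an unadjusted p under 0.05. *ccdc65*, a gene of the regulatory complex, had log2 CPM of 1.2, 0.76, 0.98 and 1.06 in controls 1 to 4 and of 1.35, 1.61, 1.38 and 1.52 in mutants 1 to 4. The groups did not overlap, and the log2 difference was 0.46 (standard error 0.16, adjusted p = 0.289 from limma). *drc1* and *gas8*, of the same complex, differed by 0.42 and 0.09.

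The ruler is made by the products of *ccdc39* and *ccdc40*. *ccdc39* had log2 CPM of 1.42, 0.71, 0.31 and 1.06 in controls 1 to 4 and of 1.18, 0.38, 0.91 and 0.85 in mutants 1 to 4, a difference of -0.04 (95% interval -0.65 to 0.56, adjusted p = 0.965 from limma). Only clutch 3 had a higher mutant. Its partner *ccdc40* differed by 0.26. *drc3*, of the regulatory complex, ranged from 0.24 to 1.11 in controls and from 0.33 to 1.23 in mutants: controls 1 to 4 were at 1.11, 0.76, 0.24 and 0.87 and mutants 1 to 4 at 0.63, 0.94, 1.23 and 0.33. The difference was 0.04 (95% interval -0.53 to 0.61, adjusted p = 0.967), and the 4 clutches went from -0.53 to 0.99. The intervals of *ccdc39* and *drc3* include the median of all members.

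Tethers and assembly factors of the dynein arms counted 4 members. None passed the test of limma, 1 had an unadjusted p under 0.05 and was called with the block, and the median was 0.43. This was *cfap100*, which in *Chlamydomonas* encodes part of a tether of the inner dynein arms. It had log2 CPM of 1.2, 1.18, 0.31 and 0.76 in controls 1 to 4 and of 1.93, 1.78, 1.42 and 1.32 in mutants 1 to 4. All mutants were above all controls, and control 3 was the lowest library. The log2 difference was 0.75 (standard error 0.24, adjusted p = 0.255 from limma, and 0.0283 with clutch as a block). *cfap57* and *cfap43*, also linked to inner arms, differed by 0.56 and 0.31, and *cfap298*, needed to assemble dynein arms in zebrafish, by 0.10.

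The largest difference of all belonged to *odf3b*, among 8 members of other axonemal or flagellar roles whose median was 0.58. Named after outer dense fibre proteins of sperm tails, *odf3b* had log2 CPM of 0.58, 0.33, 0.39 and 0.44 in controls 1 to 4 and of 2.02, 1.73, 1.58 and 1.23 in mutants 1 to 4. The lowest mutant was well above the highest control. It rose by 1.21 (standard error 0.19, adjusted p = 0.0197 from limma), a fold of 2.31, and its call was kept without each library in turn (adjusted p of up to 0.0844). It was lost when both libraries of clutch 2 or of clutch 3 were left out (adjusted p = 0.247 and 0.22). *stk33*, which encodes a protein kinase, had 0.24, 0.08, 0.02 and 0.21 in controls 1 to 4 and 1.42, 1.11, 0.86 and 1.18 in mutants 1 to 4. Here too the groups were apart, and the rise was 1.01 (standard error 0.18, adjusted p = 0.0328 from limma), a fold of 2.01. Without control 2 or 3 or mutant 2 or 4 that call was lost (adjusted p of up to 0.122).

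*cfap70* differed by 0.75 and the adenylate kinase gene *ak8* by 0.63, both called with the block alone (adjusted p = 0.0443 and 0.0418). *ak7a*, another adenylate kinase gene, differed by 0.53. *cfap157*, *cfap99* and *cfap58* differed by 0.45, 0.32 and 0.13 and were called in neither fit.

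The 6 genes found through RefSeq symbols were described apart. *pierce1*, *spag17*, *cfap221*, *cfap54* and *cfap91* differed by 0.92, 0.77, 0.60, 0.50 and 0.36, and *pierce1*, *spag17* and *cfap54* were called with the block alone (adjusted p = 0.0932, 0.0554 and 0.0726). *pierce1* averaged 0.749 CPM in controls and 1.33 CPM in mutants, so it too may have passed the authors' filter only through the mutants. *cfap251*, a gene of the complex at the spoke base in *Chlamydomonas*, was the exception, with a difference of -0.33 and a lower mutant in all 4 clutches (adjusted p = 0.625, and 0.324 with the block).

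**Figure D3:**
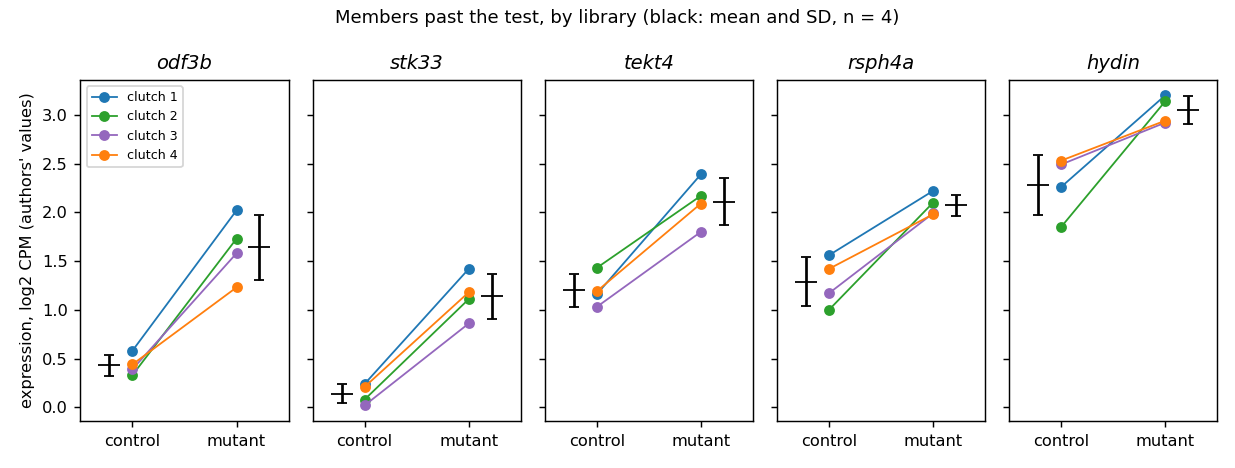
Log2 CPM (vertical axis, the authors' values) of the 5 members that passed the test, in the control and the mutant library of each clutch, joined by lines. Black bars give the mean and SD of 4 libraries. Each line rises, and in each panel the 4 mutants lie above the 4 controls.

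In each clutch, most members were higher in the mutant. The median difference over the members was 0.39, 0.35, 0.50 and 0.31 in clutches 1 to 4, and 38, 37, 39 and 34 of the 43 members were higher in the mutant. Over all genes the medians were 0.02, 0.04, 0.03 and 0.01, and 10885, 11257, 11112 and 10595 of 20409 genes were higher. Of the members, 27 were higher in all 4 clutches, 9 in 3, 6 in 2 and 1 in a single one. The widest spread between clutches, picked out after its values were seen, was that of *rsph9*, with differences of 1.41, 0.35, 2.22 and 0.39. Mutant 1 was the highest mutant for 23 members and control 1 the highest control for 19, while control 3 was the lowest control for 19 and mutant 4 the lowest mutant for 19. In clutch 1 both libraries were thus often the highest of their group.

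**Figure D4:**
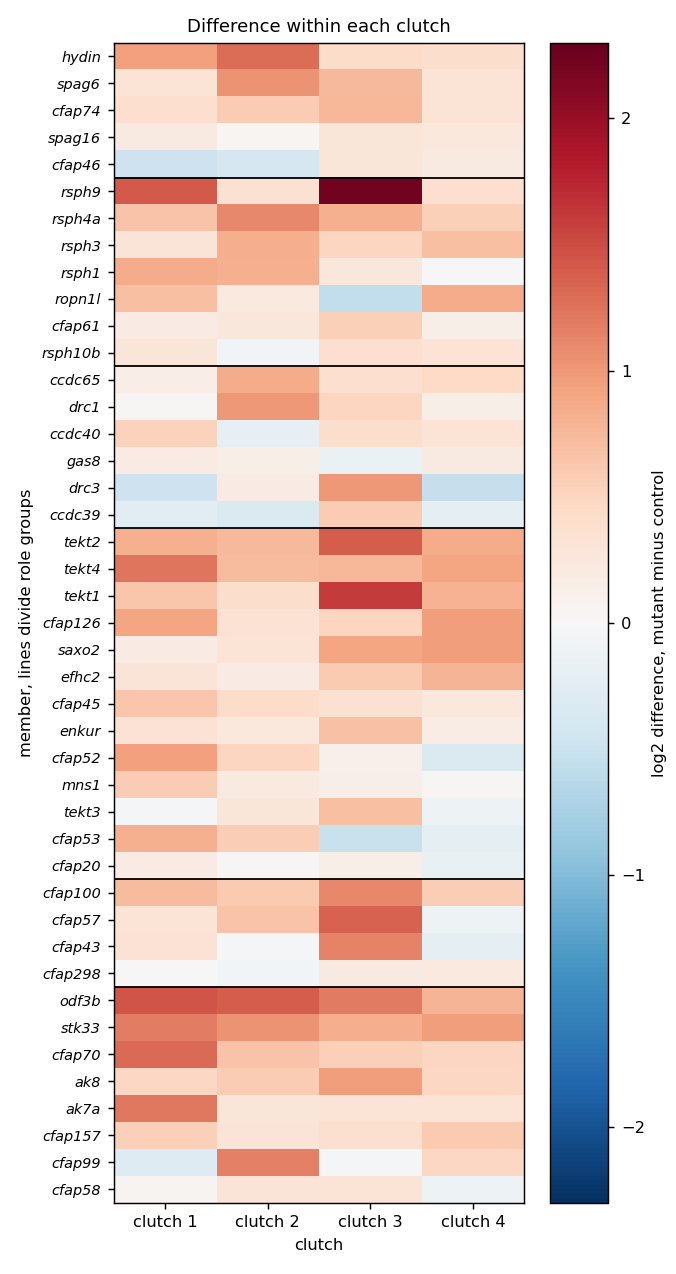
Log2 difference of the mutant minus the control tube within each of the 4 clutches (columns) for the 43 members (rows). Red is higher and blue lower in the mutant, and black lines divide the role groups. Of the members, 27 are red in all 4 columns.

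Most members were weakly expressed. Their control means ran from -0.41 to 3.62 log2 CPM with a median of 1.16, where the median of all genes was 3.81. The depth of the libraries is not given in the sources used here, but low values came in tied steps. Between 0.5 and 1.5 log2 CPM, 80.0% to 82.6% of values fell on levels shared by at least 10 genes, and these levels were 0.059 to 0.0664 CPM apart. If a step is 1 read, a member had 13 to 200 reads in controls, with a median of 37. Counting alone would then give a log2 SD of 0.236 for the median member, against an observed median SD of 0.260 in controls and 0.243 in mutants. The 29 members with a control mean under 1.5 had a median difference of 0.47 and a median standard error of 0.238, and the other 14 had 0.32 and 0.145. With a pseudocount of 1 CPM, which shrinks the changes of low genes, the median difference was 0.32, and *odf3b* and *stk33* differed by 0.81 and 0.61.

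Other genes of motile cilia were described by the same counts. Of 18 measured genes of axonemal dynein chains, 15 had a positive difference, with a median of 0.41. *dnah12*, a heavy chain gene, rose by 0.63 (standard error 0.13, adjusted p = 0.0619 from limma), a call lost without any one of 6 of the 8 libraries (adjusted p of up to 0.208). None was lower, and the block called 7 of the 18 higher. Among 19 genes that act in dynein arm assembly and docking, 18 were positive with a median of 0.46. None of these passed the test of limma, 9 had an unadjusted p under 0.05 and were higher, and 8 were higher with the block. In this list *efcab1*, *dnaaf1* and *zmynd10* averaged 0.939, 0.987 and 0.831 CPM in controls and 1.98, 1.8 and 1.24 CPM in mutants. These genes may have passed the authors' filter only through the mutants, and lend the counts no support. A further gene of the list, *dnaaf5*, averaged 0.756 CPM in controls and 0.915 CPM in mutants, under 1 in both groups. *efcab1* and *dnaaf1* were among those called with the block. Of 24 further genes of motile cilia, 21 were positive with a median of 0.42, and the block called 6 higher and 1 lower. *capsla*, *morn3* and a gene that RefSeq names *cfap65* rose by 0.77, 0.98 and 0.58, calls that were lost without any one of 6, 6 and 7 of the 8 libraries (adjusted p of up to 0.215, 0.229 and 0.254). *tppp3*, chosen after its values were seen, which encodes a tubulin polymerization promoting protein, differed by -0.83 (adjusted p = 0.197, and 0.0356 with the block).

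Among 9 measured genes of transcription factors that drive motile ciliogenesis, *foxj1a* alone was called. Its log2 CPM was 2.82, 2.49, 2.2 and 2.72 in controls 1 to 4 and 3.51, 3.32, 3.57 and 3.61 in mutants 1 to 4. The groups were apart, and *foxj1a* rose by 0.95 (standard error 0.15, adjusted p = 0.0194 from limma), a call kept without each library in turn. Its paralog *foxj1b* and the factor gene *rfx3* each differed by 0.20 and were called in neither fit. The median of the 9 genes was 0.12. Of 16 genes of intraflagellar transport complex B, which serve immotile cilia too, *traf3ip1* was lower and none was called higher by limma. With the block, 1 was higher and 2 were lower. At an unadjusted p under 0.05 in limma without the block, 1 was higher and 2 were lower as well. The median difference of the 16 genes was 0.11.

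**Figure D5:**
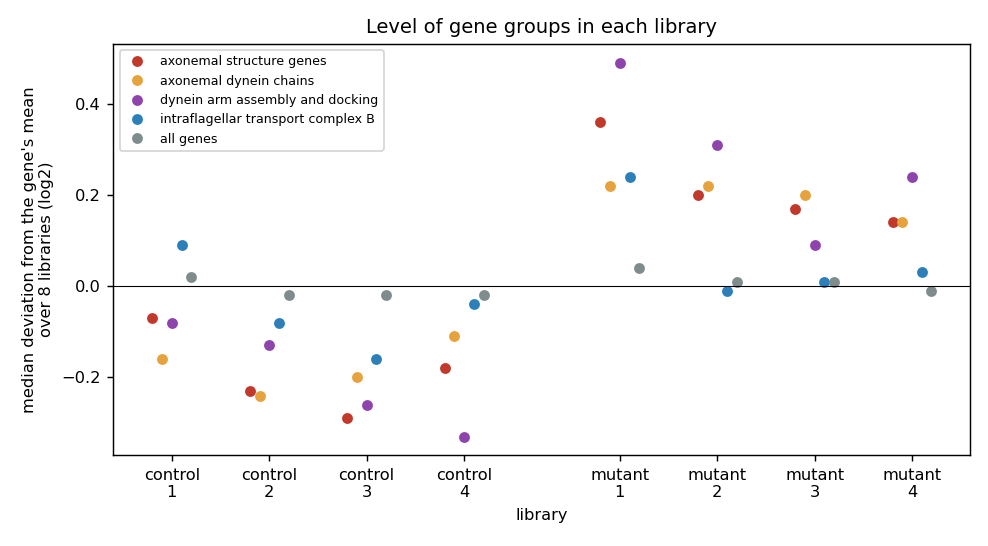
Median over the genes of a group of the deviation from each gene's mean over the 8 libraries (vertical axis, log2), for each library (horizontal axis). The members (red) lie from -0.29 to -0.07 in controls and from 0.14 to 0.36 in mutants, and all genes (grey) lie near 0.

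Markers of other tissues were summed beside these results. The 17 photoreceptor genes, all lower in the mutants of all 4 clutches, summed to 4916 to 10500 CPM in controls and 1471 to 1598 CPM in mutants. The 16 pancreas genes were lower as well in each clutch. With the block, 17 photoreceptor and 16 pancreas genes were called lower, against 16 and 0 by limma without it. The 9 epidermis genes summed to 14520 to 19940 CPM in controls and 19530 to 21780 CPM in mutants, and the 7 blood genes to 917.3 to 2885 and 1205 to 3179 CPM. Both sums were higher in the mutant of each clutch. None of these genes was called by limma without the block, while 2 epidermis and 6 blood genes were higher with it. Markers of tissues that bear motile cilia were also summed. The 7 pronephric tubule genes summed to 483.2 to 773.6 CPM in controls and 465.1 to 671.3 CPM in mutants, the 8 genes of the floor plate and central canal to 76.4 to 95.1 and 61.7 to 86.5 CPM, and the 6 genes of the olfactory and ependymal epithelium to 194.1 to 305.0 and 246.5 to 336.6 CPM. Each of these ranges overlaps between the groups, but tubes of the same clutch differed. The pronephric sum and the floor plate sum were lower in the mutant of each clutch. The olfactory and ependymal sum was higher in the mutant of each clutch, while the median level of the same 6 genes was lower. This median was 2.18, 2.46, 2.28 and 2.44 log2 CPM in controls 1 to 4. In mutants 1 to 4 it was 1.73, 2.15, 1.96 and 1.8 log2 CPM. Single genes within the lists differed as well. Of the floor plate and central canal genes, 7 of 8 had a negative difference, with a median of -0.20, and 4 were lower in all clutches. *pkd2l1*, a channel gene of neurons that contact the spinal canal, was called lower (-1.47, adjusted p = 0.015 from limma), and 3 of the 8 were lower with the block. Of the olfactory and ependymal genes, 4 of 6 had a positive difference, and the median was 0.06. In all clutches, 2 were higher and 2 lower in the mutant. The olfactory marker gene *ompa* was called lower (-1.14, adjusted p = 0.013 from limma). With the block, 1 gene of this list was higher and 1 lower. None of the pronephric genes was called by limma, 1 was lower at an unadjusted p under 0.05, 2 were lower with the block, and the median was -0.08. Every marker was detected above the floor of the table. Their part in the higher level of the axonemal genes was not tested.

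By gene order in RefSeq, 2 members lie on the chromosome of *traf3ip1*. *efhc2* is 157 and *rsph1* 516 protein-coding genes away from it. Neither passed the test.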

How the data were processed

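The deposited table holds log2 CPM values of 20409 genes in 8 libraries, made by the authors with SOAPnuke, HISAT2, Bowtie2, RSEM, a filter on a mean CPM above 1, and voom of limma. Genes that average under 1 CPM in controls may have passed that filter only through the mutants. The values used here do not follow the filter exactly, as *dnaaf5* averaged under 1 CPM in both groups. The submitters' processing notes name the build GRCz11. Sorted values are nearly identical between libraries, as quantile normalization leaves them, a step that the methods do not name. RSEM divides reads that fit more than 1 gene. A second table, with differences and p-values of the authors' own comparison, was used for gene symbols only.

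Mutants and controls were compared by limma 3.58.1 in R 4.3.3 (mean-variance trend, moderated standard errors). Its two-sided p-values were adjusted by the Benjamini-Hochberg method over the whole table, with a call at an adjusted p under 0.1. The fit had no clutch term, as the methods name none. The number marks a shared clutch in the labels. The control and mutant of a clutch deviated together from their group means (correlations over genes of 0.64, 0.325, 0.334 and 0.458 for clutches 1 to 4). The fit with clutch as a block is therefore given for the members and for the lists whose calls are described. Figures were drawn with matplotlib 3.10.9.

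The members, the lists, the role groups and the tests were chosen with earlier results of these data known. Members given with all library values are those called, the smallest p of each role group, the 3 lowest differences and the 6 smallest p with the block. The rule also asked for extreme levels per coding length. No coding length was used here, so levels were not ranked between genes. RefSeq symbols and gene order come from GRCz12tu, another build, so no coordinates are given. All 43 members have an entry there.

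Alternatives were no trend, robust moderation, vooma and library weights, a pseudocount of 1, a filter at a mean log2 value of 1, scaling to housekeeping genes, clutch as a block, omission of libraries or clutches, an adjusted p under 0.05, and members matched by RefSeq symbol. The block without single clutches and the counts of separated groups without clutch 1 were added after seeing the data.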

Additional observations from a re-analysis of the deposited data

Results flagged for a closer look

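Among 86 groups of 4 libraries (43 members in controls and in mutants), 5 held 1 library far from the other 3, by Dixon's test at its 95% critical value. Chance gives about 1 in 20, and 5 of 86 is close to that share, so none of the 5 is shown to be a true outlier. *cfap70* was at 0.31 log2 CPM in control 1 and at 0.94 to 0.97 in the other controls. *cfap298* was at 2.72 in mutant 4 and at 3.38 to 3.45 in the other mutants. *cfap74* was at 2.55 in mutant 3 and at 2.07 to 2.14 in the others, and *rsph10b* at 1.23 in mutant 4 and at 0.85 to 0.91 in the others. *efhc2* was at 1.03 in control 3 and at 1.3 to 1.33 in the other controls.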

How the results depend on the processing

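No member was called lower under any alternative run. The 5 members called higher became 9 with library weights, 16 with the clutch block, 12 with the block and without clutch 1, 1 (*odf3b*) after re-centring on housekeeping genes, 3 at an adjusted p under 0.05, and 0 to 8 without single libraries or clutches. The other settings gave 4 to 6. Genes called higher and lower over the whole table (74 and 237) became 204 and 478 with library weights, 1322 and 1605 with the clutch block, 1239 and 1640 with the block and without clutch 1, 36 and 170 at an adjusted p under 0.05, and 8 to 285 and 72 to 836 when libraries or clutches were left out. The median difference over the members was 0.32 with a pseudocount of 1 and 0.55 after re-centring, which moved the median of all genes from 0.03 to 0.14, and 0.37 to 0.51 when libraries or clutches were left out. With a minimum mean log2 value of 1, 27 members were left and 26 of them were positive. With RefSeq symbols 46 of 49 were positive, and the count of calls remained 5.

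Of the members given with all library values, 3 with small differences changed sign. *ccdc39* was 0.01 with library weights, 0.06 after re-centring, 0.02 with the block and without clutch 1, and -0.26 to 0.14 when libraries or clutches were left out. *cfap46* was 0.03 with the block and without clutch 1, and -0.22 to 0.03 with libraries or clutches left out, and *drc3* -0.28 to 0.23. The cause was not tested. After re-centring, *hydin*, *rsph4a*, *tekt4* and *stk33* had differences of 0.87, 0.88, 1.01 and 1.11 and were not called. Re-centring subtracted the median level over 19 housekeeping genes, which stood at -0.47 in mutant 1 and -0.23 in control 1 relative to the mean of the libraries. The median deviation of the same genes from their own means was 0.02 and -0.07 there. Whether the subtracted shift is a true offset of these libraries was not tested. If tied steps are single reads, most members had few reads, and a member that was not called is not shown to be unchanged.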
